A study of Mus musculus with 4 samples.

Results

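Small heat shock proteins and stress-inducible chaperones were examined in Fgf10-positive cells sorted from the submandibular salivary gland of mice. The set was named gene by gene: Hspb1, Hspb2, Hspb3, Hspb6, Hspb7, Hspb8 and Cryab for the small heat shock proteins, and Hspa1a, Hspa1b and Hsph1 for the inducible chaperones, 10 of the 53465 genes counted. These genes were chosen by their counts in the adult and pup libraries described here, so their differences between the ages are given as descriptions without a test. Adults taken on day 60 after birth gave 2 libraries, and pups taken on day 7 gave 2. Every mouse was of strain C57BL/6J with genotype Fgf10CreERT2:Rosa26Tomato fl/fl, in which a tamoxifen-activated Cre under Fgf10 control switches on a Tomato reporter. Both ages had received tamoxifen at 0.1 mg per g of weight, adults on days 57 and 58 and pups on days 4 and 5, so there was no untreated group. The reporter marks cells that expressed Fgf10 when tamoxifen was given. The labels do not say how many animals gave each library.

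Small heat shock proteins hold unfolding proteins in solution without using ATP and hand them to the HSP70 machine, which refolds them with ATP. Hspa1a and Hspa1b encode the inducible cytosolic HSP70, Hspa8 encodes its constitutive counterpart, and Hsph1 encodes HSP110, which exchanges the nucleotide of HSP70. Heat and other protein stress act through heat shock factor 1, which binds inverted repeats of the letters GAA, called heat shock elements. Several small heat shock proteins, among them HSPB2, HSPB3, HSPB6, HSPB7 and alpha-B crystallin (the product of Cryab), are best known from muscle, where they bind filament proteins.

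The sequences just upstream of the genes are shown first, because the inducible HSP70 pair and Hspb7 had the clearest separation of the ages and differ in them. RefSeq sequences of GRCm38.p6 were at hand for 8 of the 10 genes, and for those the 250 bases before the annotated start were searched on both strands for GAANNTTC, TTCNNGAA, GAANNTTCNNGAA and CCAAT. The windows of Hspa1a (chr17:34972157-34972406, minus strand), Hspa1b (chr17:34959239-34959488, minus strand), Hspb1 (chr5:135887669-135887918, plus strand) and Hspb7 (chr4:141420529-141420778, plus strand) follow in the direction of transcription. Capitals mark the paired GAA repeats and the CCAAT box, which is read here on the other strand.
Hspa1a: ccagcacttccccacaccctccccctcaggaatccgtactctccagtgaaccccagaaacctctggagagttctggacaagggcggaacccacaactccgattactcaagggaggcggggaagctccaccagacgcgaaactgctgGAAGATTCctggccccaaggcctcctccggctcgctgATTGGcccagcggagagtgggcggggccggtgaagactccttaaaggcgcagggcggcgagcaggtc
Hspa1b: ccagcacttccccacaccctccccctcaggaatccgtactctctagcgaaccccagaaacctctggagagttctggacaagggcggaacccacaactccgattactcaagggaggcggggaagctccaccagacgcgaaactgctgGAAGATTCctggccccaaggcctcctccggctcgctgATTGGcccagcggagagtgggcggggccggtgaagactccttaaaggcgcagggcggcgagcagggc
Hspb1: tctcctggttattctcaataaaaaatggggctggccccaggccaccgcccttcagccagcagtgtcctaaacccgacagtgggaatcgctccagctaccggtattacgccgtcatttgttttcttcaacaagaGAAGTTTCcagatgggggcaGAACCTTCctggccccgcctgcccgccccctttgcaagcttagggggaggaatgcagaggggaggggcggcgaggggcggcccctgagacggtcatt
Hspb7: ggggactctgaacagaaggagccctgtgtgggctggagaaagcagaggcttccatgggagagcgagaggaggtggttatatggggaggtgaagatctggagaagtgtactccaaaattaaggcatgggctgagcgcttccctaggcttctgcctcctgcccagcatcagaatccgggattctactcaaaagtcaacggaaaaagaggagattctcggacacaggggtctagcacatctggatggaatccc
In Hspa1a and Hspa1b 1 paired repeat began at position -104 and 1 CCAAT box at -67, counted from the start. The windows of the pair differed at 3 of 250 positions, C44T, T47C and T249G, with the base of Hspa1a first and positions counted from the first base shown. Hspb1 had paired repeats beginning at -117 and -97. Hspb7 and Hspb8 had no match to any of these motifs in their windows.

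A paired repeat of either orientation stood in 7 of the 10 windows on file, which came from 6 of the 8 genes, beside 12.8% of all 32851 such windows of the mouse genome. The windows are not independent, since Hspa1a and Hspa1b are near copies and both windows of Hsph1 overlap. GAANNTTC alone was in 6.69% of all windows, TTCNNGAA in 7.17% and CCAAT in 33.8%. The longer element GAANNTTCNNGAA, which contains both pairs, was in 0.466% of all windows and in none of these. Among 65 windows on file for 50 other chaperone genes, a paired repeat stood in 12. The longer element stood in windows of Hspd1, Hspe1 and Dnajb6. The windows of Hspd1 and Hspe1 overlap at the element, as do both windows of Dnajb6, so these windows too are not independent. No window was on file for 14 further chaperone genes, among them Hspa8, Hspa9, Hsp90aa1, Hsp90ab1 and Hsf1.

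The 4 libraries differed in depth and in makeup. Counts over genes came to 7289792 to 21490686 per library. In pup replicate 1 76.7% of all reads tallied overlapped no counted gene feature, against 9.70% to 10.6% in the others. In that library 96.7% of 1092 olfactory receptor genes, which the gland is not known to use, had a count. A background read count was therefore estimated for that library from the olfactory receptor genes, in proportion to exon length. It is given below for some genes only, and the CPM and marker sums are not corrected for it. CPM below are counts scaled to 1000000 per library with edgeR's TMM factors, and levels are compared between genes only as CPM per kb of exon. Exon length is that of all annotated exons of a gene merged, which can exceed the length of its main transcript. Levels per kb of genes with several exons can therefore be too low beside those of single-exon genes. Fgf10 stood at 195 and 40.3 CPM in adults, with 27.3 and 24.1 CPM in pups. Summed ionocyte markers, 10 genes of the ion-transporting duct cells, reached 7925 and 5025 CPM in adults, with 179 and 218 CPM in pups. The 8 fibroblast markers summed to 1118 and 21907 CPM in adults, with 25555 and 58223 CPM in pups, so the adult libraries were unlike each other in stroma. The adults differed also in the 6 endothelial markers, which summed to 0.0766 and 788 CPM, with 112 and 6.25 CPM in pups. In pup replicate 1 background accounts for an expected 36.6% (Kdr) to 69.3% (Cdh5) of the counts of these markers. The 10 duct and acinar markers summed to 8687 and 19244 CPM in adults, with 2150 and 5432 CPM in pups. The adults were unlike each other here in Prol1, at 50.9 and 7058 CPM, and in Aqp5, at 0 and 138 CPM. Of the 10 log2 fold changes 9 were positive. Smgc went the other way, at 106 and 227 CPM in adults, with 526 and 1564 CPM in pups. In bulk RNA of this kind, fewer cells of a type and less RNA per cell cannot be told apart.

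Per kb of exon, Hspa1b was the highest of the set in the adults at 701 ± 251 CPM per kb (SD, n = 2), followed by Hspa1a at 333 ± 93.5, Hspb1 at 310 ± 91.3, Cryab at 167 ± 26.4, Hspb8 at 53.7 ± 25.4 and Hspb7 at 45.2 ± 11.4. In the pups Hspb1 led at 242 ± 89.4 CPM per kb, before Hspa1b at 228 ± 4.85, Cryab at 102 ± 83.9, Hspb8 at 101 ± 54.6 and Hspa1a at 97.7 ± 7.32. Neighbours whose library ranges overlapped were Hspa1a and Hspb1, Hspb8 and Hspb7, Hsph1 and Hspb6, and Hspb6 and Hspb2 in the adults. The same held in the pups for Hspb1 and Hspa1b, for Cryab, Hspb8 and Hspa1a in turn, and for Hsph1, Hspb6 and Hspb2 in turn. Together the 10 genes took 0.437% and 0.257% of adult gene counts and 0.186% and 0.166% of pup gene counts.

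**Figure D1:**
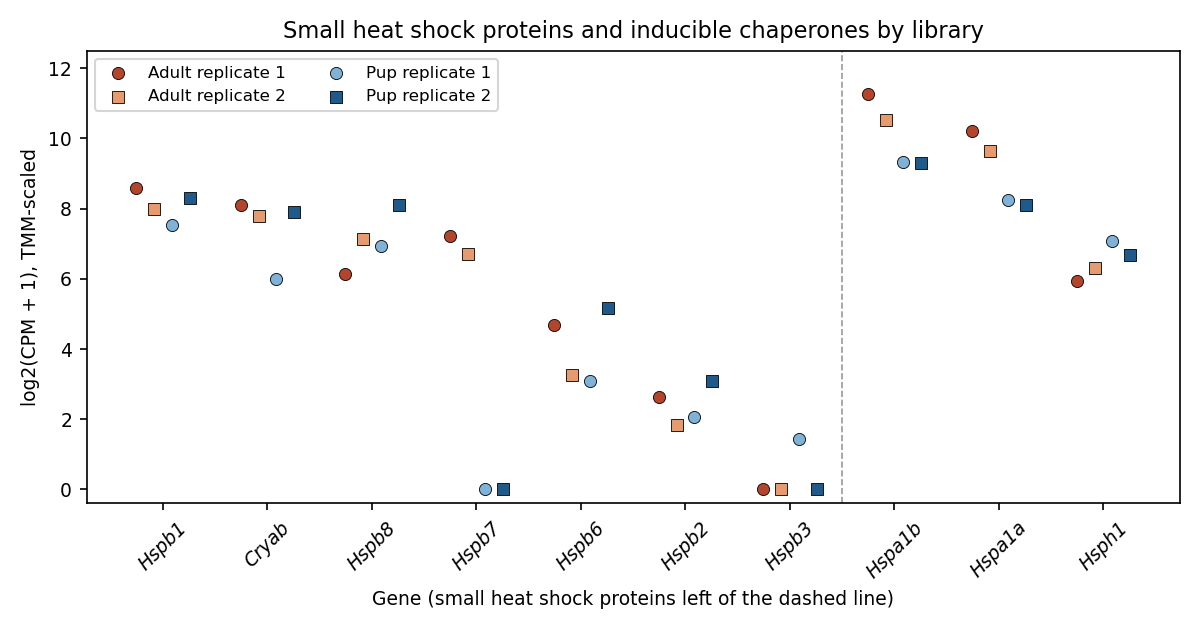
Levels of the 10 genes as log2(CPM + 1), with 1 point per library, red and orange for the 2 adult libraries and light and dark blue for the 2 pup libraries. Hspb7 lies at 0 in both pup libraries, Hspa1a and Hspa1b are higher in both adult libraries, and the points of Hspb1, Cryab, Hspb8, Hspb6 and Hspb2 interleave.

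Of the 10 genes, 9 passed edgeR's filter on low counts. Both adult libraries lay above both pup libraries for Hspb7, Hspa1a and Hspa1b, 3 of the 9, where 21.8% of all 16320 genes tested did so. Both pup libraries lay above both adult libraries for Hsph1 alone, beside 27.1% of all genes tested. At an adjusted p of 0.05, edgeR's quasi-likelihood test called 0 of the 9, as it called 0% of all genes in either direction. With p unadjusted, 1 of the 9 was higher in adult and 0 were higher in pup below 0.05, beside 5.99% and 8.49% of all genes. DESeq2 called 3 of the 9 higher in adult, beside 3.74% of all genes, and called none of them higher in pup, beside 5.28%. Because this contrast chose the genes, nothing is read from these counts. Over all genes tested the log2 fold change had a median of -0.24, which shifted by -0.07 with DESeq2 size factors and by -0.38 with library totals in place of TMM.

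Hspb7 (ENSMUSG00000006221, chromosome 4, 141420779 to 141425311 on the plus strand of GRCm38, 3 exon blocks), the cardiovascular small heat shock protein known from heart and skeletal muscle, was counted in adult libraries only. It had 1926 and 1429 counts in the adults, or 148 and 103 CPM, and 0 counts in both pup libraries. Against a floor of 3 counts over both pups it was at least 1180-fold higher in the adults on average, and at least 970-fold higher in adult replicate 2, the lower of the pair. In pup replicate 1 the average background rate would have given 38.8 counts over its exons, yet none was seen. Of the 16320 genes tested 21 had 0 counts in that library. Only 3 genes of all had 0 counts in both pups with at least 10 CPM in both adults, namely Hspb7, Hs3st6 and Gm12121, a threshold set after the values were seen. No other annotated gene shares exon sequence with Hspb7.

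The 14 skeletal muscle markers summed to 9.04 and 14.8 CPM in the adults and 7.72 CPM in pup replicate 2. The sum was 418 CPM in pup replicate 1, of which titin (Ttn) gave 329 CPM from 3041 counts with 1638 expected from background. Of the 14 markers 11 had 0 counts in adult replicate 1 and 6 in adult replicate 2. Myog and Myod1, which define the skeletal muscle lineage, were at 0 in both. Acta1 had 50 and 106 counts in the adults, Myl1 34 and 17, and Mylpf 34 and 12. Filamin C (Flnc), an actin crosslinker that HSPB7 is known to bind, had 0 counts in adult replicate 1, 13.8 CPM in adult replicate 2 and 92.9 and 65.7 CPM in the pups, the opposite order. Desmin (Des), the muscle intermediate filament, stood at 35.1 and 27.6 CPM in adults, with 7.03 and 15.9 CPM in pups. The sum of the ionocyte markers given above and Hspb7 were both higher in adult replicate 1 than in adult replicate 2 and far lower in the pups. Tfcp2l1 differed, at 1870 and 2078 CPM in the adults. Atp6v0a4 had 0 counts in both adults and 81 and 3 in the pups, with 69.7 expected from background in pup replicate 1. The part of ionocytes in the result was not tested.

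The genes with levels closest to those of Hspb7 were found by Euclidean distance of log2(CPM + 1) over the 4 libraries. They were Rab17, a small GTPase of epithelial trafficking, at a distance of 1.56, Mc4r, the melanocortin 4 receptor, at 1.57, Neurl1a at 1.64, Iapp, the precursor of amylin, at 1.99, and Gpd1, a glycerol phosphate dehydrogenase, at 2.15. Rab17 stood at 66.7 and 77.0 CPM in adults, with 0.758 and 0.473 CPM in pups. Iapp stood at 208 and 43.9 CPM against 1.84 and 0 CPM. Within the adults Hspb7 differed less between libraries than Mc4r did, which stood at 148 and 35.3 CPM.

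**Figure D2:**
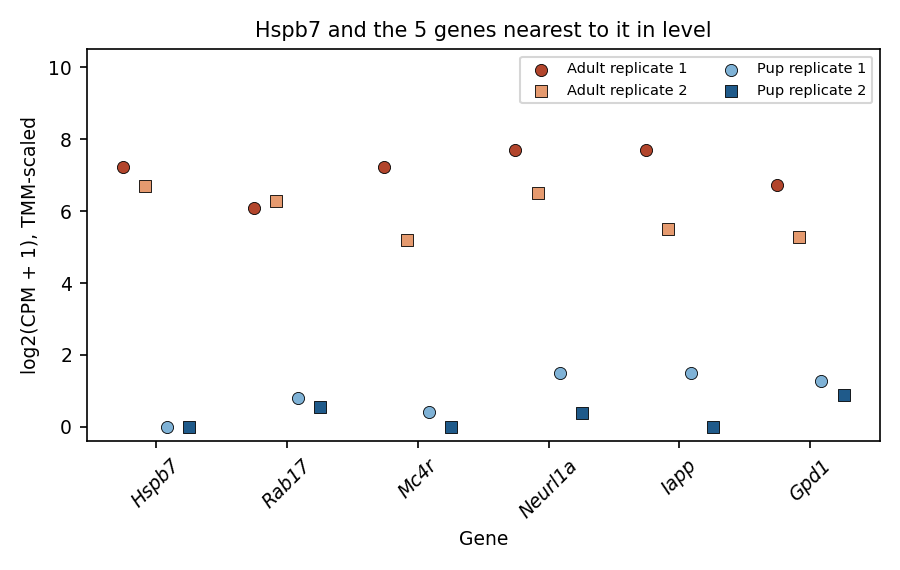
Levels as log2(CPM + 1) of Hspb7 and of the 5 genes nearest to it in level, with 1 point per library in red and orange for adults and light and dark blue for pups. In all 6 genes both adult libraries lie far above both pup libraries, which for Hspb7 are at 0.

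Hspa1a (ENSMUSG00000091971, chromosome 17, 34969190 to 34972156) and Hspa1b (ENSMUSG00000090877, chromosome 17, 34956436 to 34959238), each a single exon on the minus strand and 9951 bases apart, had the highest mean levels of the set in adults. Hspa1a stood at 1185 and 793 CPM in adults, with 305 and 275 CPM in pups, a ratio of the mean CPM of 3.41. Hspa1b stood at 2463 and 1469 CPM in adults, with 649 and 630 CPM in pups, a ratio of 3.08. Adult replicate 1 was the highest for both, and the pups lay close together. The log2 fold changes were 1.77 ± 0.78 (SE) and 1.62 ± 1.01. With each library left out in turn they ranged from 1.40 to 2.03 for Hspa1a and from 1.15 to 1.95 for Hspa1b. Under library totals the log2 fold changes of Hspa1a and Hspa1b fell to 1.40 and 1.27. The median of all genes fell as well, so Hspa1a lay 2.01 above it under TMM and 2.02 above it under library totals. That distance is no check on the scaling, which moves the genes and their median together. Hspa1l, a testis-type HSP70 gene that starts 546 bases from the start of Hspa1a on the opposite strand, had 0 and 4 counts in adults, with 32 and 0 in pups, where background alone would give 34.7.

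The copies cannot be fully told apart. Their coding sequences differ at 8 aligned bases and by a gap of 3 bases, an identity of 99.6% over the aligned part. Of all 50-base windows of the Hspa1a transcript, 58.8% occur letter for letter in that of Hspa1b, and of the 100-base windows 47.1%. The sources used here give neither the read length nor how reads that align to both copies were counted. The levels of each copy are therefore uncertain. Hspa1b made up 67.5% of the pair's counts in adult replicate 1 (95% Wilson interval 67.1% to 67.9%), 64.9% in adult replicate 2 (64.4% to 65.5%), 68.0% in pup replicate 1 (67.0% to 69.0%) and 69.6% in pup replicate 2 (68.9% to 70.3%). These intervals cover counting error only. The balance of the copies thus moved over 4.69 percentage points while their summed level moved from 904 to 3648 CPM. Of Hspa1a, 19.0% of the exon length is shared with Gm20481 on the other strand, which had 0 counts in every library.

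Hspa8, the constitutive HSP70, did not separate the ages. Per kb of exon it stood at 264 and 247 CPM in adults, with 174 and 318 CPM in pups. The inducible pair together stood at 1278 and 791 CPM per kb in adults, with 334 and 317 in pups. The ratio of the pair to Hspa8 was thus 4.84 and 3.20 in adults, with 1.92 and 0.996 in pups, with no overlap between the ages. As a ratio within a library it does not depend on the scaling between libraries. The size of the ratio depends on the merged exon length taken for Hspa8, while the order of the libraries does not. An exact permutation test of 2 libraries against 2 cannot go below 0.333, and none was run. The 10 immediate early genes, which sorting and dissociation are known to induce, summed to 24351 and 24004 CPM in adults, with 14569 and 24774 CPM in pups. Of these genes 4 of 10 were higher in both adults than in both pups (Fos, Jun, Atf3 and Dusp1), beside 21.8% of all genes tested. In both pups 1 was higher (Egr1), beside 27.1% of all genes tested, and the others overlapped. Their part in the result was not tested.

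**Figure D3:**
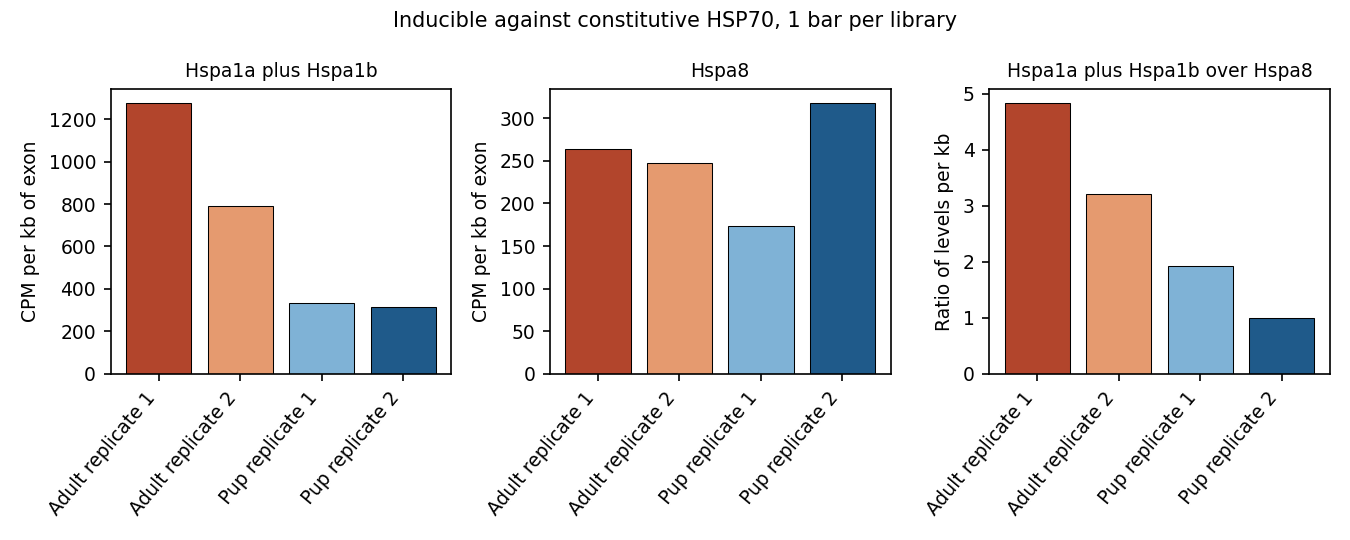
Level of Hspa1a plus Hspa1b (left) and of Hspa8 (middle) in CPM per kb of exon, and their ratio (right), with 1 bar per library and no error bars since each bar is a single library. The ratio falls from 4.84 in adult replicate 1 to 0.996 in pup replicate 2, while Hspa8 is highest in pup replicate 2.

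Hsph1 (ENSMUSG00000029657, chromosome 5, 149614287 to 149636376, minus strand), the HSP110 partner of HSP70, had the opposite order to the pair. It stood at 60.2 and 77.9 CPM in adults, with 135 and 101 CPM in pups, with 8.17% of its counts in pup replicate 1 expected from background. Both pups lay above both adults, and the log2 fold change was -0.77 ± 0.47 (SE), from -0.97 to -0.55 without 1 library. Per kb the HSP70 pair exceeded Hsph1 154-fold and 73.8-fold in adults, with 18.0-fold and 22.8-fold in pups. The size of these folds depends on the merged exon length of Hsph1, 7266 bases in 19 blocks.

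Hspb1 (ENSMUSG00000004951, chromosome 5, 135887919 to 135889563, plus strand), encoding HSP25, the mouse form of HSP27, was abundant in all libraries. It stood at 386 and 253 CPM in adults, with 184 and 314 CPM in pups, and the ages overlapped. The log2 fold change of 0.36 ± 0.64 (SE) turned to -0.02 without adult replicate 1. Its spread within an age was as large as the difference between the ages.

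Cryab (ENSMUSG00000032060, chromosome 9, 50751325 to 50756636, plus strand), encoding alpha-B crystallin, a chaperone of desmin, stood at 275 and 220 CPM in the adults. In the pups it stood at 62.4 and 238 CPM, so that pup replicate 1 alone was low. The log2 fold change of 0.72 ± 0.75 (SE) was 0.05 without pup replicate 1 and 1.99 without pup replicate 2. Hspb1 exceeded Cryab per kb 2.01-fold and 1.65-fold in the adults and 1.89-fold in pup replicate 2, but 4.22-fold in pup replicate 1.

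Hspb2 (ENSMUSG00000038086, chromosome 9, 50751078 to 50752354, minus strand) overlaps Cryab head to head over 1030 bases in GENCODE vM21, 252 of them in exons of both. It makes a muscle complex with HSPB3. Hspb2 stood at 5.21 and 2.59 CPM in adults, with 3.14 and 7.51 CPM in pups, 11.2 to 47.8 times below Cryab per kb. With 30.2% of its exon length shared and the strand not marked, part of its reads cannot be assigned to it with certainty. Hspb3 had 0 counts in both adults and in pup replicate 2, and 16 counts in pup replicate 1, of which 68.4% were expected from background. It was the gene of the set that did not pass the filter.

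Hspb6 (ENSMUSG00000036854, chromosome 7, 30552178 to 30555443, plus strand), encoding HSP20 of smooth and striated muscle, stood at 24.7 and 8.64 CPM in adults, with 7.58 and 35.3 CPM in pups. The higher adult and the higher pup were far above the other 2 libraries, and background accounts for an expected 46.1% of its pup replicate 1 counts, and for 40.3% of those of Hspb2. The log2 fold change of Hspb6 was -0.37 ± 0.98 (SE) and turned to 0.20 without adult replicate 2 and to 1.14 without pup replicate 2. That of Hspb2 was -0.45 ± 1.53 and turned to 0.31 without pup replicate 2. The 11 markers of smooth muscle and myoepithelium, the contractile cells around acini, summed to 5658 and 2671 CPM in adults, with 5540 and 15887 CPM in pups. Adult replicate 1 exceeded adult replicate 2 and pup replicate 2 exceeded pup replicate 1 in this sum, in Hspb2 and in Hspb6. The same order held in Hspb1, Cryab and Hspb11, so it was not particular to Hspb2 and Hspb6. Among the markers summed, Actg2 and Smtn were lower in adult replicate 1 than in adult replicate 2. Oxtr, a defining myoepithelial receptor, had 0 counts in all libraries but pup replicate 1, where 35 were seen with 67.2 expected. The part of these cells in the result was not tested.

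Hspb8 (ENSMUSG00000041548, chromosome 5, 116408491 to 116422864, minus strand), encoding HSP22, works with the cochaperone BAG3 in clearing misfolded proteins. It stood at 69.6 and 140 CPM in adults, with 122 and 272 CPM in pups, and the ages overlapped. The log2 fold change was -0.91 ± 0.66 (SE), from -1.50 to -0.22 without 1 library. Bag3 itself stood at 230 and 221 CPM in adults, with 196 and 425 CPM in pups. Per kb, Hspb8 stood at 0.832 of Bag3 in adult replicate 2, at 0.815 and 0.841 in the pups, and at 0.398 in adult replicate 1. The ratio was thus alike in 3 libraries across both ages. Adult replicate 1 was also the library lowest in fibroblast markers, whose part in the result was not tested.

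The remaining chaperone network was read from 8 lists with 64 other genes, listed by family. Of these 59 were tested and edgeR called 0 higher and 0 lower in adult, beside 0% of all genes, with adjusted p from 0.237 to 0.992. Without adjustment, 1 of the 59 was higher and 2 were lower below 0.05, beside 5.99% and 8.49% of all genes. DESeq2 called 1 higher and 1 lower, beside 3.74% and 5.28% of all genes. With limma-voom 0 and 0 were called, beside 0% of all genes in either direction. The log2 fold change was positive for 39 of the 59, with a median of 0.24, where 42.9% of all genes tested were positive and the median of all was -0.24. Both adults lay above both pups for 16 of the 59 and both pups above both adults for 8, beside 21.8% and 27.1% of all genes. Without pup replicate 1 the median of the 59 was -0.16 and that of all genes 0.04, and without pup replicate 2 they were 0.62 and -0.21. Under library totals, which lowered the median of all genes to -0.62, 28 of the 59 were positive and 31 negative, beside 31.9% and 68.1% of all genes.

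By role, the HSP90 list was positive in 3 of 3 genes with a median of 0.63, the HSP90 cochaperones in 8 of 11 with a median of 0.47 and the chaperonins, which enclose a protein while it folds, in 9 of 10 with a median of 0.34. The J-domain cochaperones, which bring clients to HSP70, were positive in 10 of 15 (median 0.14), the HSP70 and HSP110 relatives in 4 of 9 (median -0.05) and the BAG and exchange factors in 3 of 7 (median -0.16). None of these genes passed by edgeR. The signs over the 59 genes depended on the pup library used. Without pup replicate 1, 26 were positive and 33 negative, beside 8371 and 7949 of all genes. Without pup replicate 2, 47 were positive and 12 negative, beside 7358 and 8962 of all genes. Under library totals the medians were 0.38 for HSP90, -0.00 for its cochaperones, 0.12 for the chaperonins and -0.10 for the J-domain genes, all above the median of all genes under that scaling, -0.62. The 2 most abundant genes of each list had adjusted p by edgeR of 0.50 to 0.987. Hsp90ab1, the constitutive HSP90, stood at 2149 and 2246 CPM in adults, with 933 and 1907 CPM in pups. Hsp90aa1, its inducible form, stood at 341 and 332 CPM in adults, with 239 and 363 CPM in pups, and so did not share the separation seen for the inducible HSP70 pair. Dnajb1, the stress-inducible J protein that works with HSP70, stood at 219 and 161 CPM in adults, with 221 and 345 CPM in pups. Hspa9, the mitochondrial HSP70, stood at 617 and 435 CPM against 140 and 293 CPM.

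Fkbp4 stood at 373 and 384 CPM in adults, with 88.2 and 278 CPM in pups, and Cdc37, the kinase-specific HSP90 partner, at 221 and 258 against 66.4 and 195 CPM. Dnaja2 stood at 234 and 222 against 85.4 and 194 CPM, and Bag1 at 142 and 148 against 55.9 and 120 CPM. The chaperonin subunits Cct5 and Cct7 stood at 339 and 299 CPM and at 336 and 280 CPM in the adults, between the pup values of 135 and 435 CPM and of 103 and 349 CPM. In each of these 6 genes pup replicate 1 was the lowest library. Hspb11, which carries the family's name but is known as a ciliary transport protein, stood at 12.9 and 5.69 CPM in adults, with 10.9 and 18.9 CPM in pups.

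Hsf1, the heat shock factor itself, stood at 75.3 and 67.9 CPM in adults, with 46.8 and 51.9 CPM in pups (log2 fold change 0.54 ± 0.44 SE, edgeR adjusted p = 0.665). Its inhibitor Hsbp1 stood at 286 and 237 CPM against 84.7 and 262 CPM. Singled out after their values were seen were Dnaja3, a mitochondrial J protein, and Dnajb4, a muscle-enriched one, the genes that DESeq2 called. Dnaja3 stood at 208 and 116 CPM in adults, with 26.6 and 38.2 CPM in pups (log2 fold change 2.32 ± 0.55 SE, DESeq2 adjusted p = 0.00274, edgeR adjusted p = 0.237). Dnajb4 stood at 58.0 and 76.5 CPM against 150 and 253 CPM (-1.58 ± 0.54, DESeq2 adjusted p = 0.0191, edgeR adjusted p = 0.284). Of the filaments that small heat shock proteins bind, Flna and Vim stood at 1001 and 666 and at 139 and 602 CPM in adults, with 1052 and 2520 and with 610 and 1608 CPM in pups.

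**Figure D4:**
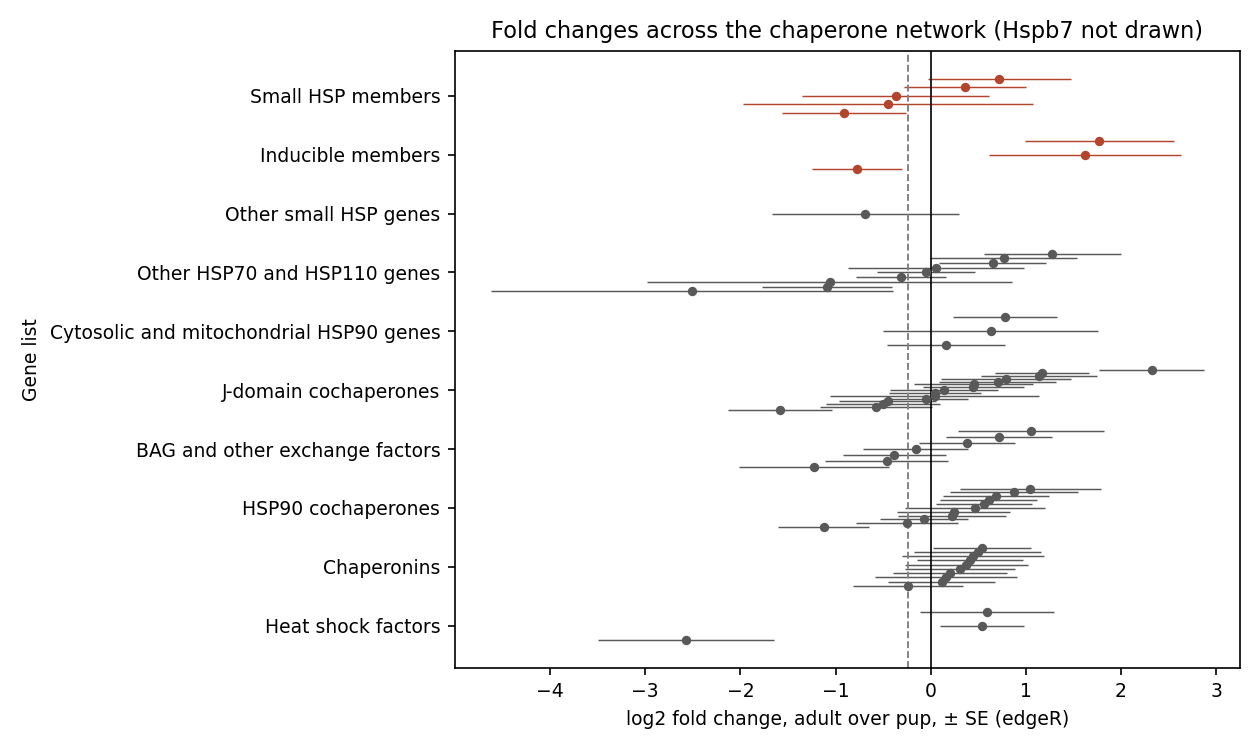
Log2 fold change of adult over pup for each tested gene, with SE bars, for the small and inducible members in red and 8 lists of other chaperones in grey. The dashed line is the median of all genes tested (-0.24) and Hspb7 is not drawn since it had 0 counts in the pups. Of the members drawn, Hspa1a and Hspa1b lie above 1.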

How the data were processed

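Sorted Fgf10-positive cells gave 2 adult and 2 pup libraries. Per the labels' protocols, 1 ng of RNA per sample went into the SMART-Seq HT kit, which does not mark strand. The authors deposited raw read counts per Ensembl gene, in 1 file for each. Named in the submitters' processing notes are cutadapt 1.18, STAR 2.5.2a, HTSeq 0.11.0, R 3.5.1, DESeq2 1.20.0 and GRCm38. The sources used here give no options, annotation release or strand setting. HTSeq's tally entries, 31.5% to 84.4% of all reads tallied, entered neither library sizes nor tests. The 8 value columns of 2 tables of the whole series were not used, as their names match no single sample. GENCODE vM21 gave symbols, positions and exon lengths for 53360 of the 53465 genes.

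The main test was edgeR 4.0.16's quasi-likelihood F test in R 4.3.3, with TMM factors, a low-count filter (filterByExpr at 10 counts, 15 in total), a model of age alone and Benjamini-Hochberg adjustment over 16320 genes. Log2 fold changes are adult minus pup, and the SE is the fold change over the square root of F. No label says that the replicates are separate animals, so p-values measure the spread among these libraries only, and it may be technical. Depth ran from 7289792 to 21490686 gene counts, where 1 count is 0.0465 to 0.137 CPM before TMM. The background of pup replicate 1 was 14.0 counts per kb of exon, taken at 0.5 of that on X and Y. Alternatives were DESeq2 1.42.0, limma-voom (limma 3.58.1), other scalings and filters, a replicate block, each library left out, the background subtracted and the Hspa1 copies summed. The fit was tested on simulated data. The members and lists were chosen with earlier results of these data known. Named were all 10 members, and per list up to 4 genes called by edgeR or, with fewer than 2 called, the 2 of highest mean CPM, and the 5 genes nearest to Hspb7.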

Additional observations from a re-analysis of the deposited data

How the results depend on the processing

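Over all genes edgeR called 0 higher and 0 lower in adult. The numbers were 284 and 231 with no filter beyond 1 count (45490 genes tested), 13 and 2 with 10 counts in every library of an age, 610 and 862 by DESeq2, and 15 and 2 with the background of pup replicate 1 subtracted. Leaving out 1 library gave 0 to 247 higher and 0 to 733 lower, the non-zero counts coming when adult replicate 1 (229 and 161) or adult replicate 2 (247 and 733) was dropped; the lone adult library is then assumed to vary like the pups, whose spread is the only one left. With DESeq2 1 of the other chaperones was higher and 1 lower, and leaving out 1 library gave 0 higher and 0 to 1 lower, the latter being Hspa12a in such a fit, without adult replicate 2. The cause was not tested. The replicate number as a block gave 0 and 0 calls. Deviations of same-numbered libraries from their age means had a correlation of -0.10 across genes. With 2 libraries per age this value cannot decide whether same-numbered libraries share a batch, and no label states a pairing.

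Of 116 member values under the 13 alternatives, 107 moved by less than the spread between replicates. For the fits without 1 library this is no check, since with 2 libraries per age the same libraries set that spread. A change of sign could also pass, as for Hspb2, which went from -0.45 to 0.31 with a spread of 0.78 in log2 units. Hspb7, Hspb8, Cryab, Hspa1a, Hspa1b and Hsph1 kept their sign under every alternative that gave a value, and Hspb1, Hspb2 and Hspb6 turned when 1 library was left out. In pup replicate 1 background accounts for an expected 40.3%, 68.4% and 46.1% of the counts of Hspb2, Hspb3 and Hspb6, and Hspb2 had only 36 and 68 counts in the adults.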
